A study of Mus musculus with 54 samples.

Results

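Histone genes were defined by their symbols: every gene of the GENCODE annotation of GRCm39 whose symbol starts with H1f, H2a, H2b, H3c or H4c. This gave 108 genes of 78252 on the chromosomes, of which 101 are protein-coding and 7 are pseudogenes. A peak was assigned to them when its summit, the base with the highest enrichment, lay inside a histone gene or within 1000 bp of one. Of the 25012 peaks in 42 lists, 40 met this rule, and these came from 13 of the 42 lists. Peaks on scaffolds (37) have no chromosome and were not counted, which leaves 24975 peaks.

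The lists are from ChIP-seq of 42 Krüppel-associated box zinc finger proteins (KZFPs) of the mouse Chr4 cluster. F9 is a line of embryonal carcinoma cells from mouse, and each culture was made to over-express a single KZFP carrying an HA tag, through which the protein and its DNA were recovered. Each KZFP has 1 library and 1 list, so no value below has an error between repeat experiments. Batches 1 to 5 hold 3, 3, 13, 20 and 3 KZFPs. Each batch had its own mixed input, and the empty vector controls, which carry no KZFP, belonged to batches 1, 2 and 4. An over-expressed protein in a tumour-derived line may occupy other sites than the native protein. A list held 21 to 6170 peaks on chromosomes (median 125.5). The fold printed for a peak is its enrichment over the input of its batch as the authors' peak caller gave it, so folds of different batches are not on the same scale.

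Histones are the proteins around which DNA is wound in the nucleosome. The core histones H2A, H2B, H3 and H4 form the octamer and the linker histone H1 binds where DNA enters and leaves it. Most of these genes are replication-dependent: they are short, lack introns, lie in dense clusters and are transcribed in S phase into mRNAs that end in a stem-loop in place of a poly(A) tail. Histone variants such as H2A.X, H2A.Z and H1.10 are mostly encoded by single genes outside the clusters and can be made throughout the cell cycle. KZFPs bind DNA with arrays of zinc fingers and are known chiefly for silencing transposable elements.

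The 2 highest folds at histone genes were those of Zfp_MB026 in the coding sequence of genes for histone H2B. Zfp_MB026 had a summit 59 to 93 bases after the first base of the start codon in 5 H2B genes. The submitted motif table gives TGGCAA as a short motif for Zfp_MB026, derived from the same peaks, and all 5 genes hold it at coding positions 78 to 83, counted from the A of the start codon as 1. The stretch from position 57 to 104 is shown for these 5 genes, then for the other 2 H2B genes with the short motif at this place, and then for 2 of those without it. Capitals mark positions 78 to 83, and all sequences are in the coding direction from GRCm39.
H2bc18 (chr3:96177124-96177171, plus strand): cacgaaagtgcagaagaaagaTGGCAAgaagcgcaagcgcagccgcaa
H2bc22 (chr13:21971741-21971788, plus strand): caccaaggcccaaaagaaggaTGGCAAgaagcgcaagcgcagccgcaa
H2bc14 (chr13:21906324-21906371, plus strand): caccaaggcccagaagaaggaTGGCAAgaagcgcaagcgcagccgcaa
H2bc21 (chr3:96128538-96128585, plus strand): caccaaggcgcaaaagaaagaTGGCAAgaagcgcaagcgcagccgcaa
H2bc3 (chr13:23930834-23930881, plus strand): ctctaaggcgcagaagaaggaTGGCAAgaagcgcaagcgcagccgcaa
H2bc26 (chr11:58845151-58845198, minus strand): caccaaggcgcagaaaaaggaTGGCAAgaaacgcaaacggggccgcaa
H2bc27 (chr11:58839822-58839869, plus strand): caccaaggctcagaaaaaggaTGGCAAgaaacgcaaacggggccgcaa
H2bc6 (chr13:23769836-23769883, minus strand): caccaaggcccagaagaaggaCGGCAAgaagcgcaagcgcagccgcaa
H2bc11 (chr13:22227456-22227503, plus strand): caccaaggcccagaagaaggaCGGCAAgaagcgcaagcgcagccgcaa

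The fold of Zfp_MB026 was 128 at H2bc18, which ranked 47 among the 4105 peaks of its list. It was 58.4 at H2bc22 (rank 267), 19.4 at H2bc14, 18.9 at H2bc21 and 17.3 at H2bc3. These are all replication-dependent cluster genes, H2bc18 and H2bc21 on chromosome 3 and the others on chromosome 13. H2bc26 and H2bc27, on chromosome 11 outside the clusters, hold the short motif at the same place and had no peak of Zfp_MB026 there. Of the 14 H2B genes without the short motif at this place, 0 had a peak of Zfp_MB026 in the aligned stretch. The pattern was noticed after the values were seen and is given as a description without a test.

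The 5 H2B genes share an unbroken stretch of 38 bases, which starts 2 bases before the short motif and runs 30 bases past it. A search of all chromosomes on both strands found these 38 bases at 6 places, and each of the 6 lay in a peak of Zfp_MB026. Of these places, 5 are the genes that defined the stretch. The sixth, which did not define it, is the processed pseudogene Gm12957 (chr4:119378262-119378299), where the fold was 19.7 and the summit lay 14 bases from the middle of the stretch. Allowing up to 2 differences, the search found a further 11 places, which all carried the single change T78C and were H2bc4, H2bc6, H2bc7, H2bc8, H2bc9, H2bc11, H2bc12, H2bc13, H2bc15, H2bc23 and H2bc24. None of these 11 places lay in a peak of Zfp_MB026. Position 78 is the last base of its codon, and both letters give the same amino acid. Over the whole printed stretch of 48 bases, H2bc14, which had a peak, differs from H2bc6 and H2bc11, which had none, by T78C alone.

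H2bc26 and H2bc27 keep the T at position 78 but differ from H2bc14 at 6 of the 48 positions, of which G87A, G93A, C96G and A97G lie after the short motif and are shared by both. The short motif alone was common in this list: 2333 of 4105 summit windows of 200 bp (56.8%) held it, against 2390 of 20870 windows of the other 41 lists (11.5%). It stood in 7 of 7 histone windows of Zfp_MB026 and in 3 of 33 histone windows of other KZFPs. Of the 5 windows of Zfp_MB026 at the other histone-related genes described at the end (H3f4, Cenpa, Casp8ap2 and 2 at Atrx), 1 held it, at Atrx, and 4 did not. The longer motif listed for Zfp_MB026 was in 0 of its 7 histone windows and in 980 of its 4105 windows (23.9%). A site without a listed peak may have had one that was removed, because any peak that overlapped a peak of an empty vector control was taken out before deposition. How this filter or the alignment of reads between H2B copies bears on the pattern was not tested. The windows at H2bc18, H2bc21 and H2bc3 had no copy of at least 180 bp at 90% identity elsewhere in the genome, while that at H2bc14 had 14 and that at H2bc22 had 8.

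**Figure D1:**
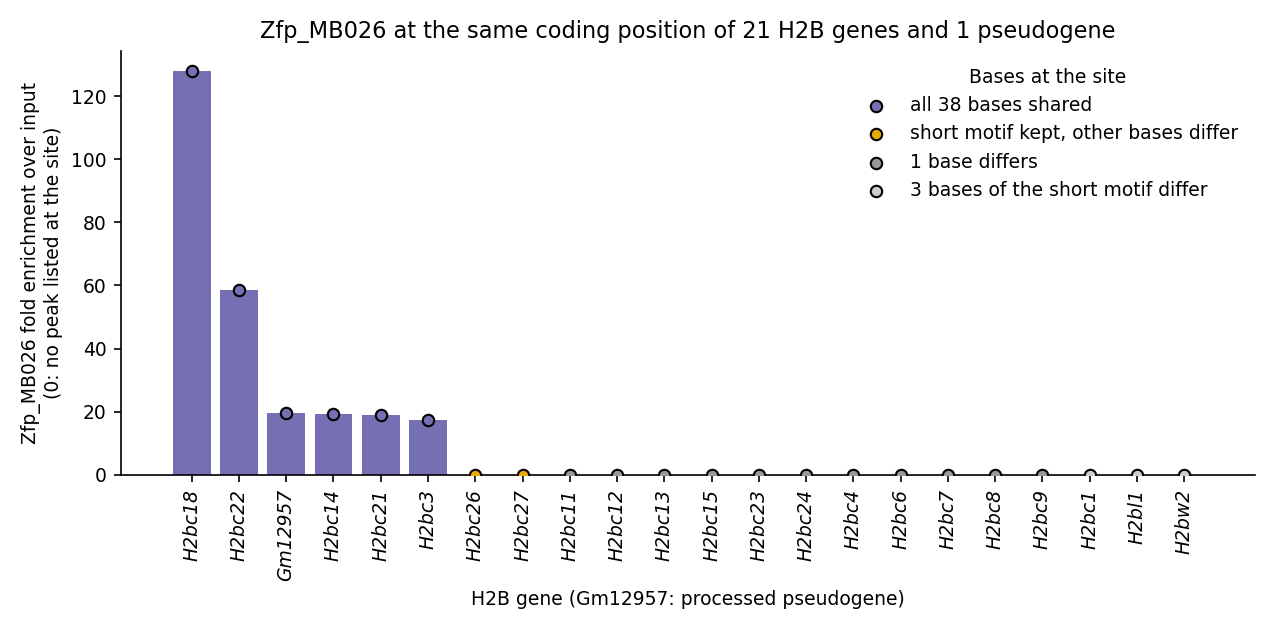
Fold enrichment of Zfp_MB026 over input (y axis, linear from 0) at the same coding position of the 21 H2B genes and of the pseudogene Gm12957 (x axis). The bars reach 17.3 to 128 for the 6 places with all 38 shared bases, and 0 means that no peak was listed, as for the other 16 genes.

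The remaining Zfp_MB026 peaks at histone genes lay outside coding sequence. At H4c14, an H4 gene on chromosome 3, the fold was 23.2 and the summit lay 1052 bases after the start codon, past the coding sequence. At H2bc4 the fold was 14.8, with the summit 1500 bases after the start codon, in an intron of the annotated longer transcript. Both windows held TGGCAA.

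Replication-dependent genes in clusters held most of the peaks. The class was set by symbol (H1f1 to H1f6, H2ac, H2bc, H3c and H4c), and a cluster was a run of at least 5 histone genes with gaps of at most 500 kb. The runs with replication-dependent genes number 3 and hold 66 replication-dependent genes: 24 genes over 327.9 kb (chr13:21899933-22227846), 32 genes over 403.6 kb (chr13:23715220-24118834) and 10 genes over 50.3 kb (chr3:96127181-96177448). They held 36 of the 40 peaks. Counting each gene with a summit inside it or within 1000 bp, 35 of 66 cluster genes (53%) had a peak in at least 1 list, in 12 of 24, 14 of 32 and 9 of 10 genes of the respective runs. Because neighbours lie so close that 1 peak can count for 2 genes, each peak was also given to the single gene that holds its summit or is nearest, which leaves 25 of 66. Among all 21757 protein-coding genes, 33.9% had a summit inside or within 1000 bp in at least 1 list, without such single assignment.

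Outside the clusters, 1 of 4 replication-dependent genes had a peak, H4c16 on chromosome 6. Of 23 variant or single genes, 2 had one (8.7%), H1f10 and H2ax. The variants H2az1, H2az2, H2aj, H1f0 and the oocyte linker histone H1f8 had none. Of the 15 H2A variant genes in runs on the X chromosome, the H2al1 group among them, 0 had a peak in any of the 42 lists. These counts stand beside the 33.9% of all protein-coding genes, which differ from them in length.

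Over all 108 histone genes, 38 (35.2%) had a peak in at least 1 list and 11 (10.2%) in at least 2. Among all 21757 protein-coding genes counted the same way, 33.9% had a peak in at least 1 list and 11.9% in at least 2. By this count, which does not allow for gene length, the histone genes lie near the background. The genes differ in length, with a median of 522 bp for the histone genes and 19173 bp for all protein-coding genes. Counted only within 1000 bp of a transcript start, 30 of 101 protein-coding histone genes (29.7%) had a peak in at least 1 list, beside 20.3% of all protein-coding genes. In at least 2 lists the values were 9 of 101 (8.91%) and 3.75%. For the cluster genes the share near a start was 29 of 66 (43.9%). No test was made of these differences, since the members share sequence and lie side by side.

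**Figure D2:**
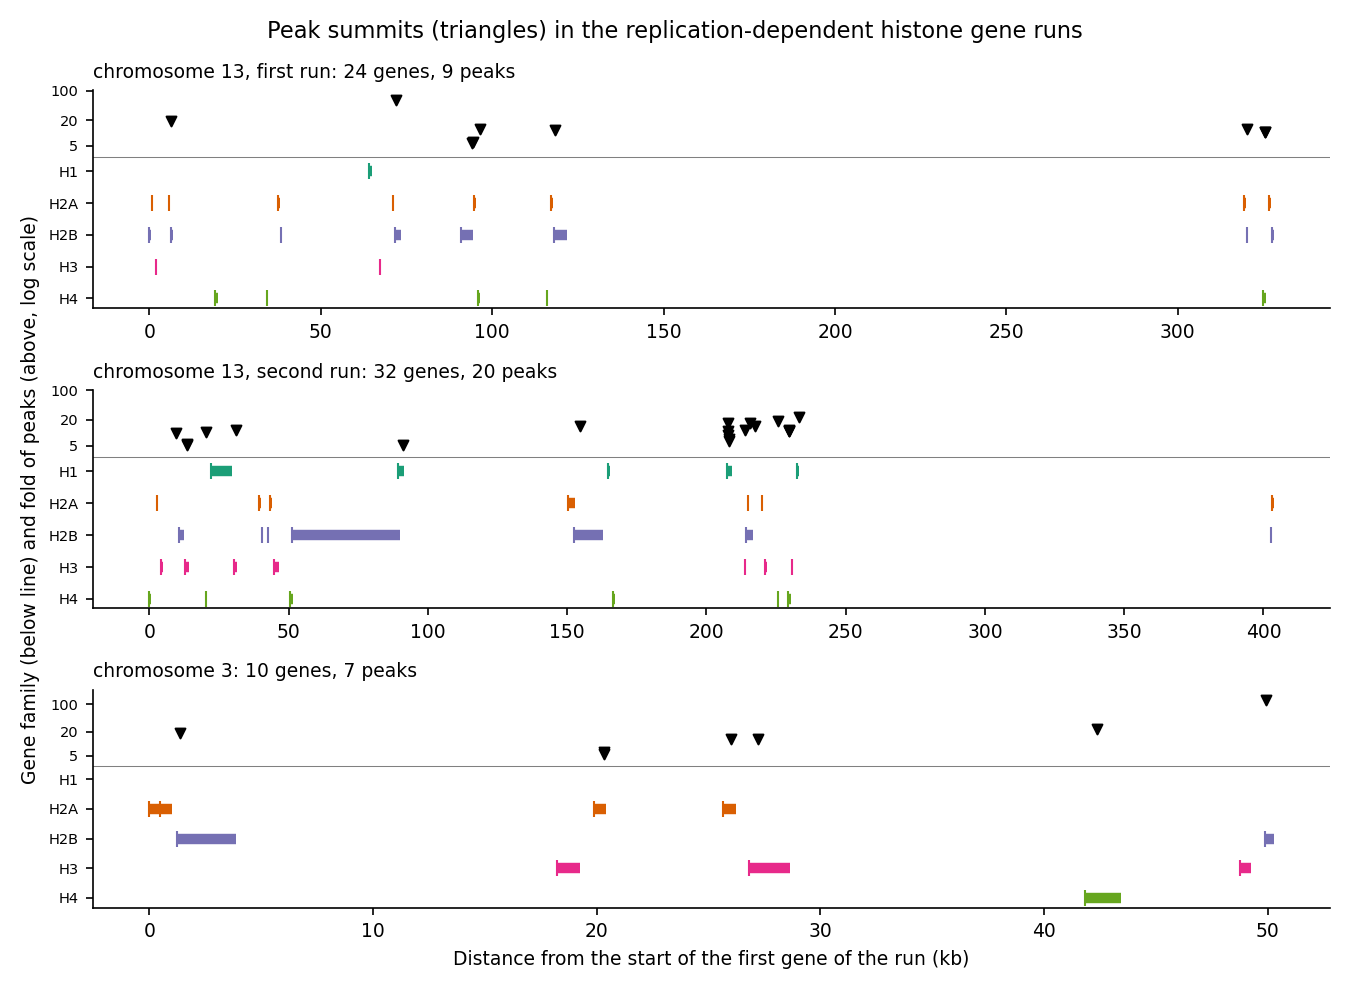
Positions of the 66 replication-dependent genes in the 3 runs (bars below the line, by family) and of the summits of their 36 peaks (triangles, placed by fold on a log scale), in kb from the start of the first gene of each run. The runs hold 9, 20 and 7 peaks, and in the second run of chromosome 13 the 25.4 kb from H1f2 to H1f1 hold 13 summits.

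Among promoter peaks, those with the summit within 1000 bp of a transcript start of any gene, 36 of 6743 lay at a histone gene (0.534%, exact 95% binomial interval 0.374% to 0.738%). Promoter windows of histone genes make up 0.082% of the bases in the promoter windows of all genes, and histone genes are 0.138% of all genes. Among protein-coding genes alone, histone genes are 101 of 21757, a larger share that lies inside the interval of 0.374% to 0.738%. All 40 histone peaks were assigned to protein-coding genes. Whether 0.534% lies above a baseline therefore depends on the genes counted. The interval covers counting error only, treats peaks as independent and leaves out that several lists can share a site. The 40 peaks merged into 29 regions, of which 7 had peaks of at least 2 lists.

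The summits lay in the coding sequence more often than upstream of it. Of the 40 summits, 32 lay in coding sequence (80%, interval 64.4% to 90.9%), 3 in an untranslated part of an exon, 3 downstream of the gene, 1 in an intron and 1 upstream of the gene. Of the 6707 other promoter peaks, 590 (8.8%) had the summit in coding sequence. The sets differ, since 4 of the 40 histone peaks are not promoter peaks. Coding sequence takes 12.7% of the bases in histone genes with their flanks, where the 40 summits were sought. It takes 21.4% of the bases in histone promoter windows and 5.58% of those in all promoter windows. Measured from the nearest transcript start, the median summit of the 36 histone promoter peaks lay 149 bp downstream and that of the 6707 others 12 bp downstream.

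By family, the 8 summits at H1 genes lay 46 to 688 bases after the first base of the start codon, the 5 at H2A genes 41 to 288 and the 5 at H3 genes 79 to 268. The 12 at H2B genes lay 59 to 2628 bases after it. The 10 at H4 genes ranged from -156 (before it) to 1052. The single summit before a start codon was that of Zfp_MB016 at H4c2.

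**Figure D3:**
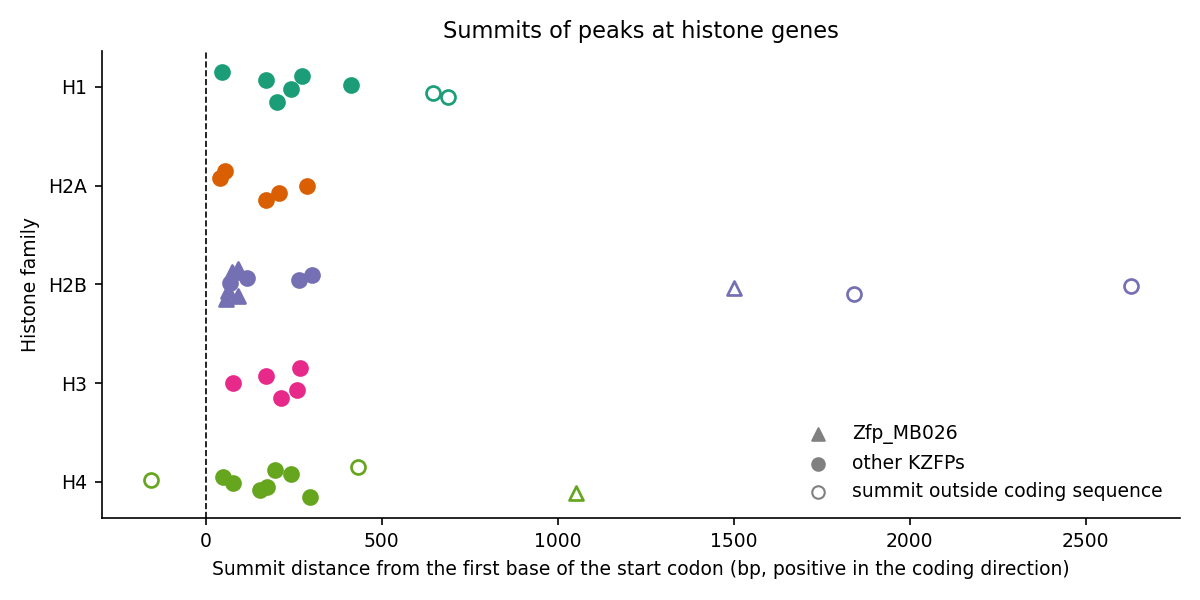
Distance of each of the 40 summits from the first base of the start codon (x axis, bp, positive in the coding direction) by histone family, with filled symbols for summits in coding sequence and triangles for Zfp_MB026. Filled symbols make up 32 of the 40 and lie between 41 and 412 bp, and 1 summit lies before the start codon.

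H1f2, which encodes the linker histone H1.2, had a peak in 5 lists, the most of any histone gene. The folds were 16.5 for Zfp_MB025, 11.3 for Zfp986, 9.03 for Zfp_MB011, 7.32 for Zfp_MB003 and 6.27 for Zfp981. The lists of the last 3 have a fold cutoff of 5 in place of 10. Of the 5, Zfp_MB025 is of batch 4 and the other 4 are of batch 3, which had no empty vector control of its own. Among all protein-coding genes, 201 had a peak in at least 5 lists.

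The 5 summits at H1f2 spread over 474 bp, at 173 (Zfp_MB025), 243 (Zfp_MB011), 273 (Zfp986), 412 (Zfp_MB003) and 647 (Zfp981) bases after the first base of the start codon. No summit position was common to the lists, although their peaks merged into a single region. Whether any of them share a binding site was not tested. The first 4 summits lie in the coding sequence and the fifth in the 3′ untranslated part. The coding stretch from position 164 to 423 (chr13:23922995-23923254, GRCm39, plus strand) is shown with the 5 bases around each of the 4 coding summits in capitals.
H1f2: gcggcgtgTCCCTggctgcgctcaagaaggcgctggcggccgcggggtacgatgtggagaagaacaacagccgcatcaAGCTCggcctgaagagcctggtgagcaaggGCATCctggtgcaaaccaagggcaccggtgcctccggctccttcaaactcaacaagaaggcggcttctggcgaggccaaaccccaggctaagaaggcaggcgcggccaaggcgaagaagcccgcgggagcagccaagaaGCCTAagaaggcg

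The other linker histone genes with a peak had 1 list each. Zfp_MB001 had a fold of 24.0 at H1f1, which encodes H1.1, with the summit past the coding sequence. Zfp_MB016 had a fold of 30.6 in the coding sequence of H1f10, the single gene of the variant H1.10, the highest fold outside the clusters. Zfp_MB011 had 5.17 in the coding sequence of H1f4. H1f3, H1f5 and H1f6, the other cluster genes of this family, had no peak in any list.

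Zfp_MB016 had 6 peaks at histone genes, 5 of them at H4 genes and 1 at H1f10. Its fold was 18.5 at H4c2, 15.5 at H4c16, 12.7 at H4c17, 11 at H4c1 and 10.3 at H4c9. The summits had no common place: relative to the first base of the start codon they stood at -156 for H4c2, at 155, 243 and 296 for H4c1, H4c9 and H4c16, and at 432, past the gene, for H4c17. The list is the longest of the 42 with 6170 peaks, and its histone peaks ranked between 1185 and 5988 in it. They were 0.097% of the list, beside 0.16% over all lists. Of its 1444 promoter peaks they were 0.416% (interval 0.153% to 0.902%), beside 0.534% over all lists, so these shares were not above the pooled ones.

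The motif listed for Zfp_MB016, which has 13 positions, was found without mismatch in 2421 of its 6170 summit windows (39.2%) and in 0 of 6 histone windows. The closest match in the 3 histone windows with at most 3 mismatches is shown on the strand that matches, with matching bases of the 13 in capitals and 12 bases on each side.
H4c9 (chr13:22225222-22225258, plus strand, 2 mismatches): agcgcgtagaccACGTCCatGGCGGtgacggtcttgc
H4c16 (chr6:136781029-136781065, plus strand, 3 mismatches): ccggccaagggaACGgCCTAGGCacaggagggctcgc
H1f10 (chr6:87958254-87958290, minus strand, 3 mismatches): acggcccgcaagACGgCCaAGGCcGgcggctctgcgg
The place matched in H4c9, from coding position 248 on the opposite strand, is also matched with 2 mismatches in 10 other H4 genes of chromosome 13. Of those 10, H4c1, H4c2 and H4c17 had a summit of Zfp_MB016 elsewhere in or beside the gene and 7 had no peak of it. Over the 11 lists that have a listed motif, 0 of 33 histone windows held their own list's motif without mismatch, against 4014 of 14651 windows (27.4%). With up to 2 mismatches these were 1 of 33 and 38.6%. The pooled shares are weighted to the long lists and the 33 windows are not, so the shares are not directly comparable. Without mismatch the share was 39.2% for Zfp_MB016, 23.9% for Zfp_MB026 and 2.34% to 31.6% for the other lists.

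Zfp_MB025 had the largest share of its list at histone genes. It had 6 such peaks among only 55 on the chromosomes (10.9%, interval 4.11% to 22.3%) and 43 of the 55 were promoter peaks (78.2%). Of its 43 promoter peaks, 6 lay at histone genes (14%, interval 5.3% to 27.9%). The folds were 16.5 at H1f2, 13.2 at H2ac18, 13.2 at H3c14, 11.7 at H2bc24, 11 at H4c1 and 10.7 at H4c9, so it had at least 1 peak at each of the 5 families. Its windows at H2ac18, H3c14, H2bc24, H4c1 and H4c9 had 18, 9, 15, 10 and 10 copies elsewhere at 95% identity or more. The window at H1f2 had none. The genes named for the peaks with copies are therefore uncertain, and how random placement of reads bears on the share was not tested. Its histone peaks ranked between 12 and 48 of 55 by fold, and the median fold of the list was 12.3. All 6 summits lay in coding sequence, a median of 242 bp after the nearest transcript start, beside 127 bp for its 37 other promoter peaks. No motif is listed for this KZFP.

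Zfp_MB003 and Zfp_MB011 have the same array of DNA-contacting residues, and each had 4 histone peaks. For Zfp_MB003 these were 7.32 at H1f2, 5.95 at H2bc23, 5.51 at H2ac19 and 5.17 at H3c7. For Zfp_MB011 they were 9.03 at H1f2, 6.27 at H2ac19, 5.68 at H2ax and 5.17 at H1f4. H1f2 and H2ac19 were common to both, which is 2 of 4 for each list. Over all their peaks, 42 overlapped the other list by at least 1 bp, which is 11.7% of the 360 peaks of Zfp_MB003 and 14.3% of the 294 of Zfp_MB011. The summits lay 14 bp apart at H2ac19 and 169 bp apart at H1f2.

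Zfp_MB018 had 3 peaks, with folds of 12.5 at H2bc12, 11.5 at H3c3 and 11.4 at H4c1. Zfp_MB035 also had 3, with 12 at H2ax, the single gene of the variant H2A.X that is phosphorylated at DNA breaks, 11.9 at H3c6 and 10.3 at H4c6. Zfp981 had 6.27 at H1f2 and 5.91 at H2bc23. Besides Zfp986 and Zfp_MB001, 3 more lists had 1 peak each: Zfp_MB014 with 14.3 downstream of H2bc3, Zfp_MB023 with 10.1 downstream of H2bc9 and Zfp600 with 5.37 in the coding sequence of H3c7.

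The genes assigned a peak of at least 2 lists show that a shared gene did not always mean a shared summit. H4c1 had 3 lists, Zfp_MB018, Zfp_MB025 and Zfp_MB016, with summits 78, 174 and 155 bases after the start codon. H4c9 had Zfp_MB025 and Zfp_MB016 with summits 45 bp apart. At H2ax the summits of Zfp_MB035 and Zfp_MB011 were 37 bp apart, at H3c7 those of Zfp600 and Zfp_MB003 were 96 bp apart, and at H2bc23 those of Zfp981 and Zfp_MB003 were 185 bp apart. At H2bc3 the summits of Zfp_MB026, in the coding sequence, and of Zfp_MB014, downstream of the gene, lay in separate regions. H3c1, H2ac23 and the pseudogene H2ac5-ps reached 2 or more lists only through peaks whose nearest gene was a neighbour.

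**Figure D4:**
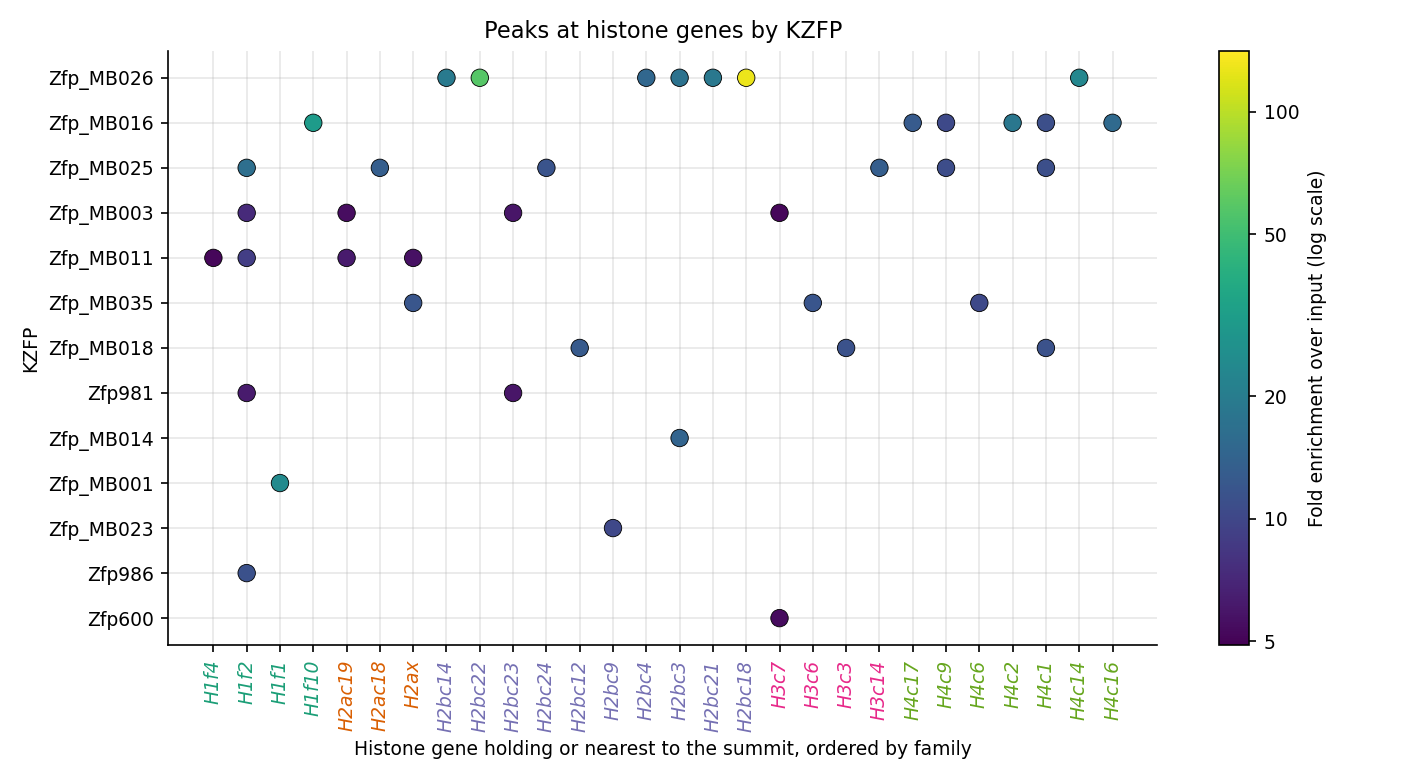
Each point is 1 of the 40 peaks, placed by KZFP (y axis) and by the histone gene that holds or is nearest to its summit (x axis, coloured by family), with its fold in colour on a log scale. H1f2 has the most points, 5, Zfp_MB026 has 6 of its 7 at H2B genes and Zfp_MB016 has 5 of its 6 at H4 genes.

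Copies of histone genes limit how firmly a peak can be placed, because the authors retained 1 alignment at random where several were equally good. Of the 40 summit windows, 24 had at least 1 other place in the genome with at least 180 aligned bases at 90% identity or more, 21 at 95% or more, and 9 had an identical copy over all 200 bases. The identical copies were to windows at H2bc23, H2bc24, H3c7, H3c14, H4c1, H2ac18 and H2ac19, so the gene named for those peaks is uncertain. By family, 5 of 5 windows at H3 genes, 5 of 10 at H4 genes and 6 of 12 at H2B genes had a copy at 95% or more. At H1 genes 2 of 8 had one, and at H1f10, H1f1 and H4c16 the windows had none even at 90%.

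The share of a list at histone genes followed its promoter share. The 13 lists with a histone peak had a median promoter share of 28.8% (11% to 79.2%) and the 29 without had 9.52% (1.06% to 55.9%). Over the 42 lists, the percentage of peaks at histone genes correlated with the percentage at promoters of other genes, with Pearson's r = 0.55 (two-sided permutation p = 0.00222, adjusted p = 0.00444 over the 2 relations tested) and Spearman's rho = 0.57 (permutation p = 0.00013, adjusted p = 0.00026). Without the 2 lists farthest from the median promoter share, Zfp_MB003 and Zfp_MB025, r was 0.49 (permutation adjusted p = 0.0039). Within batch 4 r was 0.76 over 20 lists (permutation adjusted p = 0.00074) and within batch 3 it was 0.57 over 13 lists (permutation adjusted p = 0.0829). Batches 1, 2 and 5 hold 3 lists each, too few for a value. Spearman's rho within these batches was 0.61 (permutation adjusted p = 0.0109) and 0.53 (permutation adjusted p = 0.136). With a fold of at least 10 in every list r was 0.42 (permutation adjusted p = 0.0527), which missed the threshold, while rho was 0.36 (permutation adjusted p = 0.0181), which passed it. With at least 15, over 40 lists, neither r of 0.42 (permutation adjusted p = 0.0651) nor rho of 0.27 (permutation adjusted p = 0.0905) passed. Both shares are parts of the same list, 29 of the 42 histone shares are 0, and some lists share an array of residues. Of the 40 histone peaks, 36 are promoter peaks, so a constant histone share of promoter peaks would also give a positive relation. The relation therefore does not set histone genes apart from other promoters.

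The list of Zfp982 joins a high promoter share to a histone share of 0. It has 2653 promoter peaks among 4745 (55.9%), the most promoter peaks of any list, and 0 lay at a histone gene, where counting error allows up to 0.139% of its promoter peaks (upper bound of the exact 95% interval). The pooled share over all lists was 0.534%. Histone genes make up 0.082% of the bases in promoter windows and 0.138% of all genes, and both shares lie within this bound. Their share of protein-coding genes, 101 of 21757, lies above it. Whether this list has fewer histone peaks than a baseline therefore depends on the genes counted and was not tested. Over the 29 lists without a histone peak, a count of 0 allows a histone share (3 counts of the total) of up to 0.0632% in the longest list and 14.3% in the shortest, so small lists say little.

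Over all lists as deposited, a relation to the number of peaks did not pass the threshold. Pearson's r with the log10 of the number of peaks was -0.14 (two-sided permutation p = 0.354, adjusted p = 0.354) and Spearman's rho was 0.24 (permutation p = 0.129, adjusted p = 0.129). This rank correlation passed the threshold in 2 of 10 alternatives: it was 0.37 with a fold of at least 10 in every list (permutation adjusted p = 0.0181) and 0.31 without Zfp_MB025 (permutation adjusted p = 0.0465), where r was -0.02 and -0.03. The mean histone share was 0.589% ± 2.16 (SD, n = 26 lists) in the batches with an empty vector control and 0.344% ± 0.569 (SD, n = 16 lists) in those without. The difference in means of 0.245 percentage points did not pass the threshold (two-sided permutation p = 0.893). The control goes with the batch, so the 2 cannot be told apart. By the paper's methods, overlap with a peak of any control removed a peak, so this grouping does not separate filtered from unfiltered lists. Without Zfp_MB025 the difference in means was -0.167 (permutation p = 0.35).

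**Figure D5:**
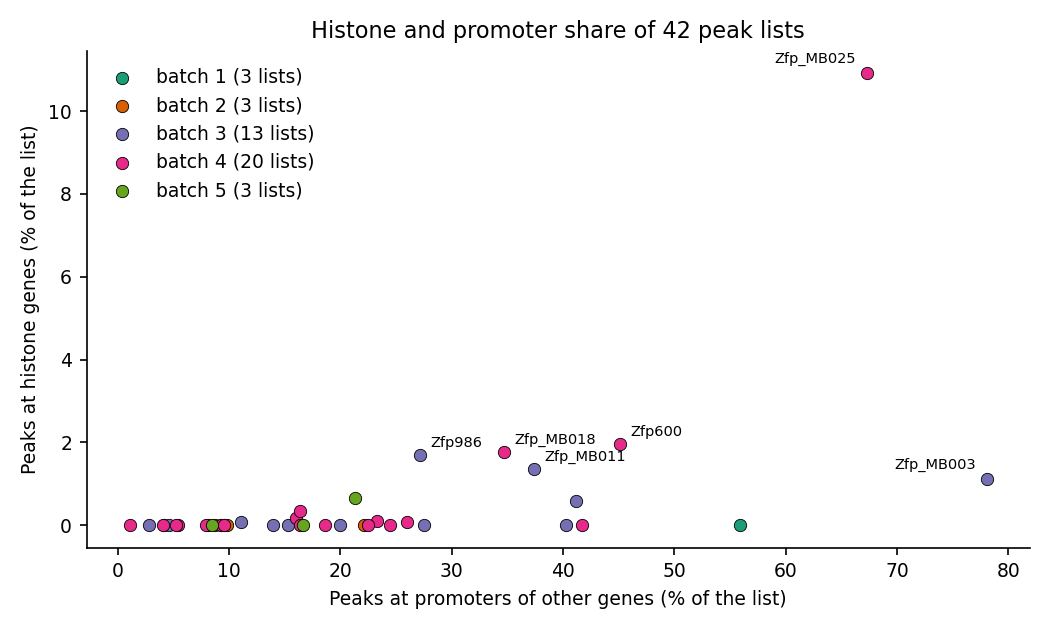
Percentage of each list at histone genes (y axis) against its percentage at promoters of other genes (x axis), 1 point per list and 1 colour per batch. Zfp_MB025 stands at 10.9%, all other lists lie below 2%, and 29 lie at 0.

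Short promoter motifs were searched on both strands. CCAAT is bound by NF-Y. TATAAA is a TATA box. ATGCAAAT is the octamer bound by Oct factors, known from H2B promoters. In promoters from 250 bases before to 50 after the canonical start, CCAAT stood in 53 of 64 protein-coding cluster genes (82.8%), beside 39.9% of all 21757 protein-coding promoters. TATAAA stood in 35 (54.7%, beside 13.2%) and ATGCAAAT in 13 (20.3%, beside 1.63%). Between cluster genes with an assigned peak and those without, the shares were 76% of 25 and 87.2% of 39 for CCAAT, and 44% and 61.5% for TATAAA. In the 40 summit windows CCAAT was present in 4 (10%), beside 34.3% of all 24975 windows. The 150 bases before the canonical start of H1f2 (chr13:23922641-23922790, plus strand) show where its CCAAT, in capitals, lies relative to the summits, which begin 214 bp after that start.
H1f2 promoter: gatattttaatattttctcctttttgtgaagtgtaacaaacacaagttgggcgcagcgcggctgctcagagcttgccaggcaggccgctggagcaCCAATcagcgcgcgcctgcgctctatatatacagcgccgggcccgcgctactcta

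Other genes of histone biology were counted with the same rule. From the histone genes that the symbols leave out, 5 were picked by name, and the set may not be complete. Of these 5, 4 had a peak and 3 had peaks of 2 lists. Among all protein-coding genes, 33.9% had a peak in at least 1 list and 11.9% in at least 2. H3f3a and H3f3b encode the replacement histone H3.3: at H3f3a Zfp982 had 18.2 and Zfp980 had 5.24, and at H3f3b Zfp982 had 16.3 and Zfp_MB025 had 11.8. At H3f4 Zfp982 had 24 and Zfp_MB026 had 17.8, and at Cenpa, the gene of the centromeric H3 variant, Zfp_MB026 had 16.4. H3f5 had none. Zfp982, without a peak at the 108 histone genes, had a peak at 3 of these 5 genes, 28, 133 and 133 bp after a transcript start. Its list holds the most promoter peaks of any list, 2653 of 4745 (55.9%). The share of all genes with a peak of Zfp982 was not counted, so the 3 of 5 has no background beside it.

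Of 24 genes for histone supply and mRNA processing, 9 had a peak (37.5%) and 2 had peaks of at least 2 lists. Over all protein-coding genes these shares were 33.9% and 11.9%, so the list lies near the background, and its genes are given for their values only. Npat, whose protein activates histone transcription in S phase, had a peak of Zfp_MB005 with a fold of 15.3, at -265 bp from a start. Zfp473, a factor of histone pre-mRNA processing, had 5.06 from Zfp_MB003, and Casp8ap2, a component of histone locus bodies, had 20 from Zfp_MB026 and 12.7 from Zfp_MB020. Among chaperones, Chaf1b of the CAF-1 complex had 27.1 and Asf1a had 16.1, both from Zfp_MB016. Hira, Cabin1 and Ubn1, of the complex that deposits H3.3, had 6.01 from Zfp_MB003, 14 from Zfp_MB016 and 10.2 from Zfp982. Atrx, the remodeller that works with Daxx, had peaks of 4 lists with folds from 5.13 to 14.1. Slbp, which binds the histone stem-loop, and the other 14 genes had none.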

How the data were processed

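ChIP-seq peak lists of 42 KZFPs were analysed, 1 library each. The authors aligned reads to GRCm39 with BWA (for equally good alignments, 1 was kept at random), removed duplicates and called peaks per library with MACS2 2.2.7.1 against the mixed input of the batch. The submitters' processing notes also name SAMtools 1.19 and deepTools 3.5.4. The authors removed any peak that overlapped a peak of an empty vector control and filtered on q and on fold enrichment. The deposited fold is a ratio to input, with a cutoff of 10, or of 5 in 10 lists. The authors' files also hold -log10 p and -log10 q of each peak and a display score, which were not used. Read depth was not used here, so precision rests on the number of peaks.

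Groups were taken from the labels. The histone genes and the gene lists were chosen with earlier results of these data known. Genes are from GENCODE and sequences from GRCm39. Relations over lists were tested with 100000 two-sided permutations (numpy 2.4.6, scipy 1.17.1) with Benjamini-Hochberg adjustment over 2 relations, after the scripts were tested on simulated data, and an adjusted p under 0.05 was called. Copies of summit windows were searched with blastn 2.17.0. Genes were named when they had peaks of at least 2 lists or were nearest to the 10 peaks of highest fold, with KZFPs named by number of peaks and share. The H2B stretch, the copies and the other single peaks were chosen after their values were seen.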

Additional observations from a re-analysis of the deposited data

How the results depend on the processing

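Of 62 alternative values, 51 kept their direction and side of the threshold or stayed within 1.5 times the reported count or within its interval, judged for the relations by r. By rho, 2 of these 51 crossed the threshold, both for the number of peaks: 0.37 with a fold of at least 10 in every list (permutation adjusted p = 0.0181) and 0.31 without Zfp_MB025 (permutation adjusted p = 0.0465). Distances of 500 and 2000 bp, any overlap of the peak, protein-coding genes only, 1 list per array and leaving out Zfp_MB026 moved no count by more than that. With a fold of at least 15 in every list, 17 histone genes, 15 cluster genes and 11 peaks were left, the share of promoter peaks was 0.313%, and r with the promoter share was 0.42. With a fold of at least 10 in every list, chosen after seeing the data, r was also 0.42, and it was 0.57 in batch 3 alone, and none of these 3 values of r passed the threshold, although rho did with a fold of at least 10 (0.36, permutation adjusted p = 0.0181). With only summit windows that have no copy at 95% identity, also chosen after seeing the data, 19 genes and 19 peaks were left. The relation to the number of peaks turned to r = 0.05 in batch 3 alone, and the difference by empty vector control turned to -0.167 without Zfp_MB025. In the settings with a higher fold or without copies, fewer peaks entered by construction, and in batch 3 fewer lists. No paired analysis was possible because each KZFP has 1 library. The number of peaks in a list limits how small a histone share can be seen.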
